A study of Mus musculus with 25 samples.

Results

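Chromatin contacts were described for 3 genes of DNA methylation, Tet1, Tet2 and Dnmt3l, across fibroblasts, reprogramming intermediates and embryonic stem (ES) cells of the mouse. A gene was placed in the 10 kb bin that the authors' gene names give it in the lists of the cells labelled TKO, which gave 3 bins of the 10485 that name any of 12695 genes. All bin pairs touching these bins were then collected from 9 interaction lists, 104 pairs in all. Because names occur only in the TKO lists, a gene needed a listed contact there to be placed, and the presence of the 3 genes in those lists is no result.

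Methylated cytosine is written by DNA methyltransferases and removed in steps that begin with its oxidation by TET enzymes. TET1 and TET2 are the TET enzymes best known in ES cells, and TET1, unlike TET2, carries its own CXXC domain, which binds CpG-rich DNA. DNMT3L has no catalytic activity of its own but binds the methyltransferases DNMT3A and DNMT3B and stimulates them, and it is known from germ cells and ES cells.

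The lists came from 25 libraries in 9 groups. HiChIP joins DNA ends that meet in the nucleus and enriches them with an antibody. Here that was to H3K27ac, an acetylated histone found at active enhancers and promoters, or to the reprogramming factor KLF4. Hi-C has no antibody step. Mouse embryonic fibroblasts (MEF) came from E13.5 embryos with rtTA3 and an OKSM cassette, heterozygous for both and for an Oct4-GFP reporter. MEF were taken at passage 3 for H3K27ac HiChIP (2 libraries) and Hi-C (2). The same kind of fibroblast, given dox and ascorbic acid, was taken for KLF4 HiChIP at day 3 in bulk (3 libraries) and at day 6 after sorting for SSEA1 (4). V6.5 ES cells in 2i medium gave H3K27ac (2), KLF4 (4) and Hi-C (2) libraries. The TKO cells, labelled V6.5 in 2i, gave H3K27ac libraries without dox (0 h, 3) and after 24 h of dox (3), and the labels do not spell TKO out. Dox was thus given to the cells of day 3, day 6 and TKO at 24 h.

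HiChIP libraries held 48.7 to 181 M contacts, and the MEF H3K27ac libraries (75 and 105 M) were shallower than those of ES (166 and 168 M). Listed counts summed to 5.58 to 10.02 M in the Hi-C libraries, whose full depth is unknown. Strength is given as the authors' CPM, the contacts of a bin pair scaled by all contacts of the same chromosome, so Tet2 on chromosome 3 is not compared in CPM with the other two genes on chromosome 10. A pair entered a HiChIP list only with a CPM of about 3 or more in most libraries and a p-value under 0.1, so a gene with 0 listed contacts may still have weak ones. In HiChIP the amount of the antibody's target and the frequency of a contact cannot be told apart.

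The Tet1 bin was chr10:62900001-62910000, the Tet2 bin chr3:133540001-133550000 and the Dnmt3l bin chr10:78040001-78050000, in mm10. Tet2 lies on the minus strand from 133463677 to 133545136, and its bin holds its start. RefSeq places Tet1, also on the minus strand, at 62804570 to 62887469, so that the bin bearing its name begins 12.5 kb beyond the RefSeq gene and overlaps only the RefSeq gene Gm51805. Dnmt3l, at 78042287 to 78063622 on the plus strand, shares its bin with Aire, the autoimmune regulator of the thymus, and contacts of that bin cannot be assigned to either gene. All 3 bins carried an H3K27ac peak at 0 h and at 24 h in the TKO lists.

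The 250 bases before 4 RefSeq transcript starts are shown because they place each gene relative to the bins whose contacts follow, and because KLF4 is known to bind CACCC boxes and GC boxes. Sequences are from RefSeq (GRCm38.p6, the assembly of mm10), 5′ to 3′ in the direction of the transcript. Capitals mark CACCC or its reverse complement GGGTG, and GGGCGG or its reverse complement CCGCCC. They were read from chr10:62887325-62887574 (minus strand), chr3:133544391-133544640 (minus), chr10:78049592-78049841 (plus) and chr10:78055085-78055334 (plus).
Tet1: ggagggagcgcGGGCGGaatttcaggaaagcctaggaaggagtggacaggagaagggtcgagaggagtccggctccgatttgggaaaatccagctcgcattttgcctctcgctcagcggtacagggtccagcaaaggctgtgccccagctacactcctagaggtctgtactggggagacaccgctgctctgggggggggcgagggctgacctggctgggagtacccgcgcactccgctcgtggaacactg
Tet2: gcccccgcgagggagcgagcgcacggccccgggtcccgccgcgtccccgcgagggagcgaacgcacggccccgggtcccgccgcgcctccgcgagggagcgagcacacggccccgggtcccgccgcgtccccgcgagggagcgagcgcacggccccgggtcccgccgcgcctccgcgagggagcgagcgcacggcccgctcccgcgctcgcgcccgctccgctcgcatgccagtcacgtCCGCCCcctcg
Dnmt3l, start inside the bin: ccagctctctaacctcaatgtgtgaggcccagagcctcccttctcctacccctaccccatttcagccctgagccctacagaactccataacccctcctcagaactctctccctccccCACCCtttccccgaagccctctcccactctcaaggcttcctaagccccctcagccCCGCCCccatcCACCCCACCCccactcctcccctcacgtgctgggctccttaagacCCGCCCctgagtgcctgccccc
Dnmt3l, start in the next bin: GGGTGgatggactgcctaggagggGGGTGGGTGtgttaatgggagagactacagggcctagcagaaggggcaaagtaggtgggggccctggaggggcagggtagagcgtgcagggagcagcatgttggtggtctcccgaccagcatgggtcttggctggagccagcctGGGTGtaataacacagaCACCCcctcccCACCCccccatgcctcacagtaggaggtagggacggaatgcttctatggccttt

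The Tet1 and Tet2 sequences each held 1 GC box and 0 CACCC boxes. A GC box occurred in 32.7% and a CACCC box in 52.0% of 32851 RefSeq promoter windows of the same length. Tet2 was the most CpG-rich, with 51 CpG dinucleotides and 83.6% GC, against medians of 6 and 52.4% over all windows. The Tet2 window lies inside the RefSeq gene, which extends to 133545136. The Tet1 window overlaps the 5′ end of its gene, at 62887469. The Dnmt3l start inside the bin had 3 CACCC boxes, a number reached by 6.92% of windows, and 2 GC boxes (16.7% of windows had as many). The start in the next bin had 6 CACCC boxes, some overlapping in runs of the letters, a number reached by 0.231% of windows. Another Dnmt3l start in the bin, at 78042287, had neither motif in its window. These are matches of letters, not sites of binding.

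H3K27ac contacts of the 3 genes were listed in ES cells and not in fibroblasts. Tet1 had 11 listed contacts in ES, Tet2 had 7 and Dnmt3l had 8, and each had 0 in MEF. More contacts in ES than in MEF were found for 65.4% of the 12695 genes. A gain from 0 to any number was found for 29.2%, and from 0 to 7 or more for 4.43%. The cutoff of 7 is the smallest ES number of the 3 genes and was thus set from their own values. Genes were placed through the TKO lists, whose cells were labelled V6.5 in 2i, as the ES cells were. A gene with contacts listed in MEF alone could not enter. The selection thus leans toward ES, for the 3 genes and for the shares of all genes, here and below. The ES numbers exceeded those of 89.7% of genes for Tet1, 75.8% for Tet2 and 80.7% for Dnmt3l, where the median gene had 3. Within 150 kb of the Tet1 bin the MEF list held 1 pair of any bins and the ES list 76. Around Tet2 these numbers were 0 and 26, and around Dnmt3l 0 and 33. No pair of the 3 genes was in both lists, so the difference in strength could not be tested. With only pairs at an authors' FDR under 0.1, ES had 2 contacts for Tet1, 0 for Tet2 and 2 for Dnmt3l, and MEF 0 for each.

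**Figure D1:**
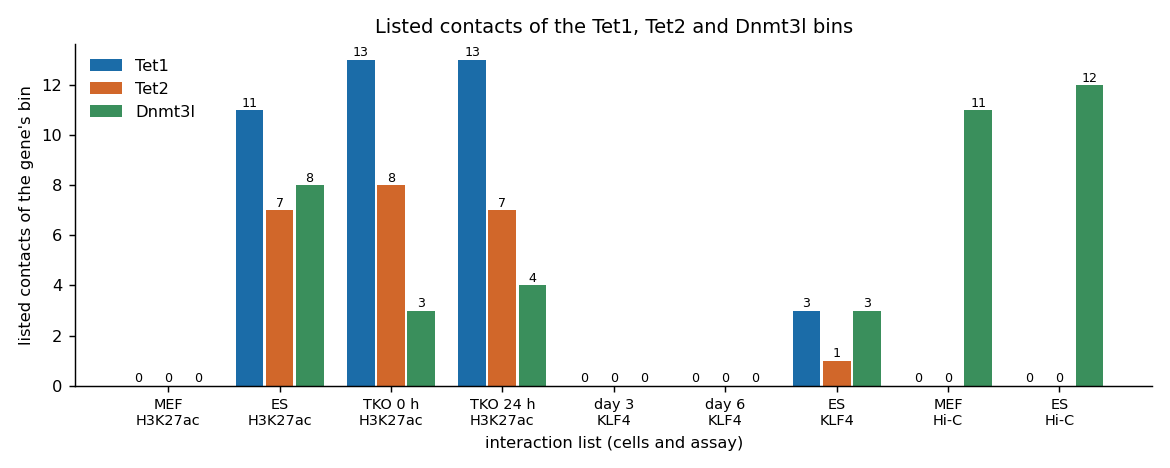
Number of listed contacts (vertical axis) of the Tet1, Tet2 and Dnmt3l bins in each of the 9 interaction lists (horizontal axis). All 3 genes are at 0 in MEF H3K27ac and in KLF4 at day 3 and day 6, and Dnmt3l alone has Hi-C contacts, 11 in MEF and 12 in ES.

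Of Tet1 and Dnmt3l, both on chromosome 10, Tet1 had the single strongest H3K27ac contact. The pair of its bin with the adjacent bin toward the gene body (−10 kb; distances are signed by coordinate) had 67.0 and 66.7 CPM in the ES libraries, 66.9 ± 0.25 (SD, n = 2). It exceeded 99.8% of the 1059 listed chromosome 10 pairs at that distance and made up 43.7% of the summed CPM of the Tet1 contacts. The next bin, −20 kb, holds the RefSeq start of Tet1 and had 18.4 and 20.6 CPM. On the other side the +10 kb bin had 15.4 and 15.8 CPM. In both libraries the −10 kb contact thus stood far above those on either side of it.

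Further Tet1 contacts weakened with distance. The bins at −30, −40, −50 and −60 kb, all within the gene, averaged 10.5 ± 0.618, 6.12 ± 0.920, 5.84 ± 0.514 and 5.60 ± 0.458 CPM (SD, n = 2). With the −20 kb bin these made 5 of 11 partners that overlap Tet1 itself. Named partners were Slc25a16, a mitochondrial carrier, at +20 kb (9.18 and 9.01 CPM), Dna2, a nuclease and helicase of DNA replication, at +40 kb (4.48 and 5.36), and Ccar1, a regulator of cell cycle and apoptosis, at −110 kb (3.56 and 3.42). The Ccar1 contact was the longest and stood close to the lower limit of the list, with 21.1% of the 38 listed chromosome 10 pairs at its distance weaker.

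Tet2 contacted mainly its own gene body. Of 7 ES partners, 6 overlapped Tet2, none bore a gene name, and all 7 carried H3K27ac peaks in the TKO lists. The −10 kb contact was the strongest, with 12.4 and 12.2 CPM, above 88.5% of 1071 listed chromosome 3 pairs at that distance. It was followed by −20 kb (10.8 and 11.2), −30 kb (8.21 and 10.1) and −40 kb (6.36 and 5.75). The profile was flatter than that of Tet1, since the strongest pair made up 24.9% of the summed CPM. The longest contact, at −60 kb, had 3.49 CPM in each library, and the single contact on the far side of the start, +10 kb, had 4.001 and 4.31.

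Dnmt3l contacts lay on both sides, 4 each way and none beyond 40 kb. The strongest was at −10 kb, a bin within Aire, with 18.5 and 22.0 CPM (20.2 ± 2.49; SD, n = 2), above 96.8% of listed pairs at its distance. The +10 kb bin, which holds the CACCC-rich start printed above, had 15.4 and 16.9 CPM. At +20 kb, the end of Dnmt3l and the bin named for Icosl, the ligand of the T-cell receptor ICOS, had 7.35 and 9.92 CPM. The other 5 partners averaged 4.002 to 5.72 CPM. Of the 8 partners, 5 were in a TKO list, where peaks are given, and 2 of those, at −10 and +10 kb, had a peak.

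**Figure D2:**
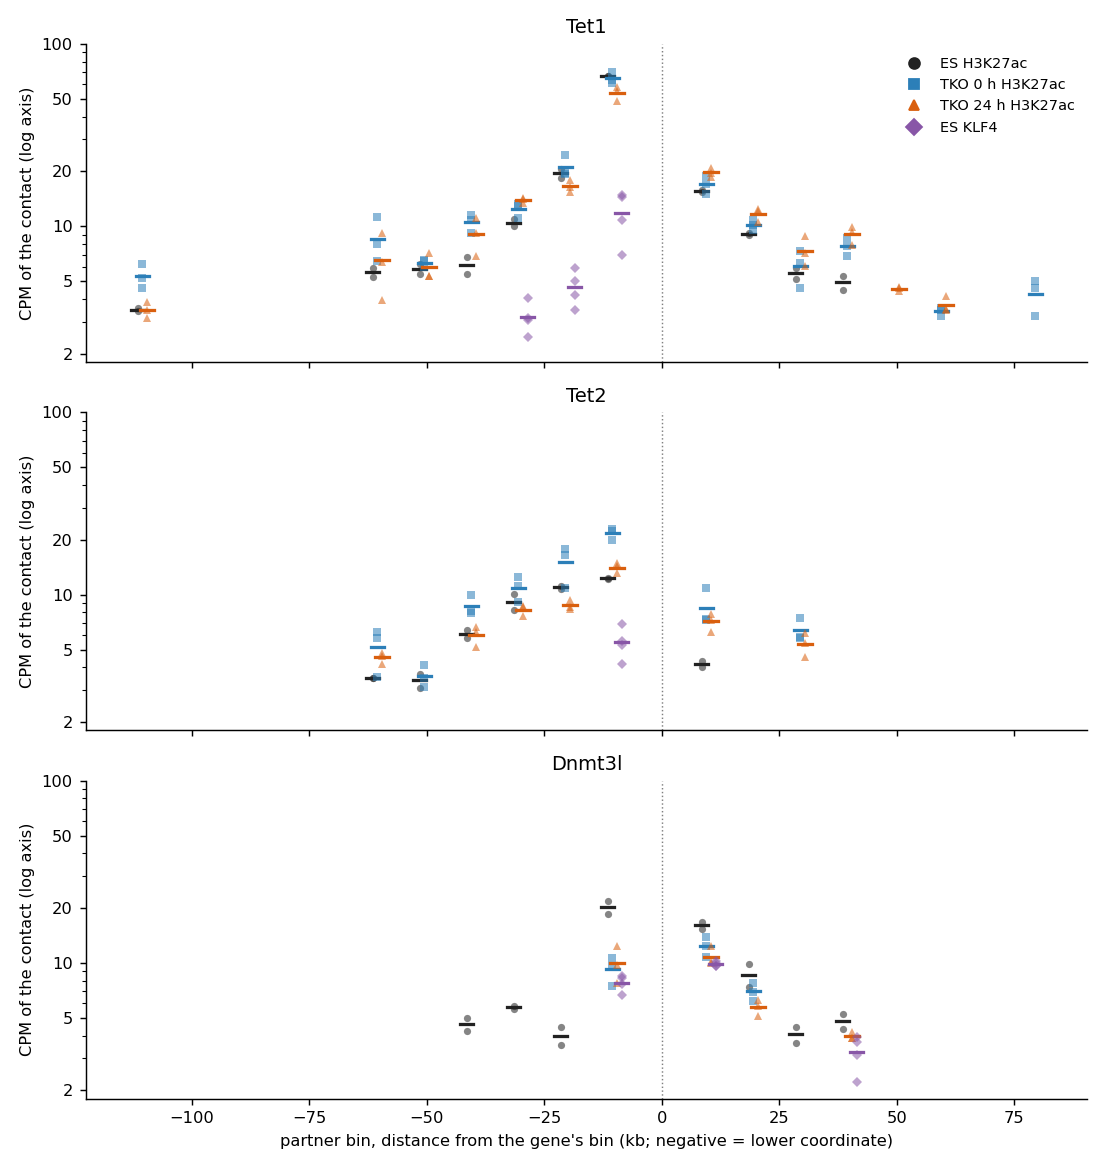
CPM on a log axis (vertical) of each listed contact against the distance of the partner bin in kb (horizontal), for Tet1, Tet2 and Dnmt3l from top to bottom. Each point is 1 library and each short line the mean of the libraries; the Tet1 contact at −10 kb stands at 48.8 to 70.2 CPM in all H3K27ac libraries shown, and the ES KLF4 contacts lie below the ES H3K27ac contacts at the same bins.

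KLF4 contacts of the 3 genes were listed in ES cells alone. There were 3 for Tet1, 1 for Tet2 and 3 for Dnmt3l in ES, and 0 for each at day 3 and day 6. Contacts in ES with none at either day were found for 23.4% of genes. The day 6 list was short, with 4047 pairs in all against 23720 at day 3 and 24589 in ES, so an absence at day 6 carries little information. No KLF4 contact of the 3 genes had an authors' FDR under 0.1 in any list. The Tet1 window of 150 kb each way held 0 pairs of any bins at day 3, 2 at day 6 and 10 in ES. The Tet2 window held 4, 0 and 10, so pairs near Tet2 but not at its bin were listed at day 3.

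All 7 KLF4 contacts were also H3K27ac contacts of ES cells, where 74.0% of all KLF4 pairs in ES were. They made up 7 of the 26 H3K27ac contacts of the genes (26.9%). For Tet1 the −10 kb contact had 10.9, 6.98, 14.4 and 14.9 CPM over the 4 libraries. The −20 kb contact had 3.48, 5.88, 4.22 and 4.98, and the −30 kb contact 3.05, 4.04, 2.48 and 3.14. The order of the Tet1 partners was that of H3K27ac, but only the −10 kb contact stood above most listed KLF4 pairs at its distance (98.9% of 351).

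The single Tet2 KLF4 contact joined its start to the −10 kb bin, with 5.32, 4.15, 6.88 and 5.57 CPM, and exceeded 34.7% of 340 listed pairs. For Dnmt3l the +10 kb contact was the strongest in KLF4, with 9.58, 10.3, 9.69 and 9.96 CPM, above 92.9% of 351 pairs. Its −10 kb contact had 8.49, 7.71, 6.71 and 8.30 CPM. The means of the joined libraries were 9.88 ± 0.0768 and 7.80 ± 0.424 (SD, n = 2 each), and the +10 kb contact was higher in all 4 libraries. In H3K27ac the −10 kb contact was the higher one in both ES libraries. In TKO the H3K27ac means had the other order, with 12.4 CPM at +10 kb against 9.24 at −10 kb at 0 h. At 24 h they were 10.6 and 9.41 CPM. The third KLF4 contact of Dnmt3l, at +40 kb, had 3.92, 3.67, 2.24 and 3.14 CPM.

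The numbers of contacts in TKO cells before and after dox differed by at most 1 for each gene. Tet1 had 13 listed H3K27ac contacts at 0 h and 13 at 24 h, of which 12 were the same pairs. Tet2 had 8 and 7, with 7 shared, and Dnmt3l 3 and 4, with 3 shared. Over all pairs, 72.6% of the 0 h list and 80.4% of the 24 h list were in both. Other choices of bins or filters gave larger differences: with 1 bin added on each side Tet2 had 22 contacts at 0 h and 14 at 24 h, at an authors' FDR under 0.1 it had 2 and 0, and the bin of the RefSeq Tet1 start had 6 and 9. More contacts at 0 h than at 24 h were found for 48.4% of genes. The Tet1 contact with Rufy2 at +80 kb (4.57, 4.98 and 3.22 CPM) was listed at 0 h alone, and one at +50 kb (4.42, 4.61 and 4.63 CPM) at 24 h alone. The Tet2 contact at −50 kb (4.12, 3.50 and 3.10 CPM) was also listed at 0 h alone, and the Dnmt3l contact at +40 kb (3.86, 3.87 and 4.17 CPM) at 24 h alone. All 4 stood at 3.10 to 4.98 CPM, and by their means they were below the median of listed pairs at their distance.

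Of the 22 pairs listed at both times, 2 fell after 24 h of dox and 0 rose, in the quasi-likelihood test of edgeR, adjusted by Benjamini-Hochberg over 67723 pairs. The share of all pairs called was 2.8%, with 2.2% lower and 0.601% higher. Both pairs belonged to Tet2 and join its start to bins in its own gene body. The median log2 change was -0.15 over the 22 pairs and 0.01 over all pairs. Nothing in the labels says that the libraries came from separate cultures, so the p-values measure the spread between libraries, which may be technical.

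The Tet2 contact at −20 kb had 10.8, 17.9 and 16.5 CPM at 0 h and 8.37, 8.60 and 9.34 CPM at 24 h. It fell by 0.65 on the log2 scale (SE 0.157, edgeR adjusted p = 0.00393). The contact at −10 kb had 20, 22.8 and 22.3 CPM at 0 h and 14.3, 14.9 and 13.1 CPM at 24 h, and fell by 0.51 (SE 0.131, edgeR adjusted p = 0.00738). The 2 times did not overlap in either contact. All 7 shared Tet2 contacts had a negative estimate, the other 5 from -0.11 to -0.40, with no call. At −20 kb the call was lost without replicate 2 at 0 h (-0.51, edgeR adjusted p = 0.115) or without replicate 3 at 0 h (0.0514), and at −10 kb without replicate 3 at 24 h (0.0736). DESeq2 called neither: its adjusted p was 0.0854 at −10 kb and was not given at −20 kb, where its independent filtering left the pair out.

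None of the 12 shared Tet1 contacts was called, with 3 at an unadjusted edgeR p under 0.05 and 0 called among the 3 that DESeq2 tested. The strongest, at −10 kb, had 63.5, 70.2 and 61.4 CPM at 0 h and 48.8, 57.7 and 55.4 CPM at 24 h. The libraries did not overlap, but the estimate of -0.16 (SE 0.0920) did not pass (edgeR adjusted p = 0.445). On the side of the gene body 6 of 7 estimates were negative, and on the other side all 5 were positive, the smallest adjusted p from edgeR being 0.237 (+10 kb, 0.31, SE 0.133). At +10 kb the libraries had 15.1, 17.1 and 18.9 CPM at 0 h and 21.0, 18.6 and 19.7 at 24 h, and overlapped.

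The 3 shared Dnmt3l contacts had no call and 0 at an unadjusted edgeR p under 0.05, and DESeq2 gave no adjusted p for them. The estimate was 0.17 (SE 0.180) at −10 kb, with 7.45, 10.6 and 9.66 CPM at 0 h and 12.4, 7.75 and 9.73 at 24 h. It was -0.14 (SE 0.164) at +10 kb and -0.19 (SE 0.216) at +20 kb. The 2 times overlapped in all 3 contacts.

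**Figure D3:**
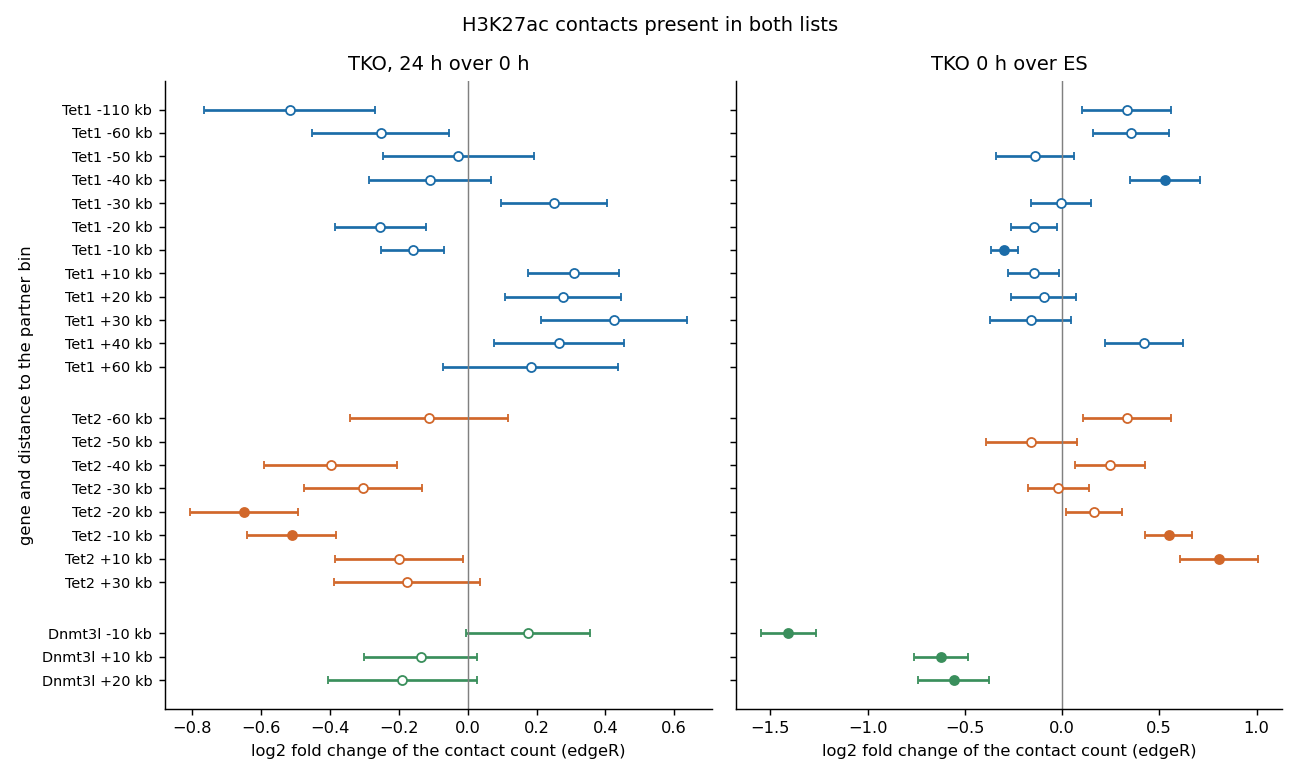
log2 fold change of the contact count with its standard error (horizontal axis) for each pair listed in both groups (vertical axis, gene and distance in kb), TKO 24 h over 0 h on the left and TKO 0 h over ES on the right. Filled points had an edgeR adjusted p under 0.05: on the left the Tet2 pairs at −20 and −10 kb, on the right 7 pairs, with the Dnmt3l pair at −10 kb farthest from 0.

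TKO cells without dox differed from ES cells most at Dnmt3l. Its listed H3K27ac contacts numbered 3 against 8 in ES, and all 3 were among the 8. The others were the weakest of the 8 in ES, with means of 4.002 to 5.72 CPM. The TKO 0 h libraries were also shallower, with 80.5 to 110 M contacts against 166 and 168 M in ES. The part of depth and of the limit of the list in this difference was not tested. Fewer contacts in TKO at 0 h than in ES were found for 27.1% of genes, and under 1/2 of the ES number for 6.01% of the 10291 genes with any in ES. Tet1 and Tet2 kept all 11 and all 7 of their ES contacts and had 13 and 8. Over all pairs, 77.6% of the ES list was in the TKO 0 h list. The TKO libraries come from cells of another label and from a differently described library preparation, and these cannot be told apart from a difference between the cells.

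This comparison was added after the data were seen. Of 21 shared pairs, 7 were called by the quasi-likelihood test of edgeR with Benjamini-Hochberg adjustment, 3 higher and 4 lower in TKO at 0 h. Of all 58568 pairs 16.9% were called, 9.41% higher and 7.44% lower. Scaling by contact totals without TMM moved the median log2 change of all pairs from -0.00 to 0.29. It gave 10 member calls, 9 higher and 1 lower, against 17394 higher and 992 lower of all pairs.

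The Dnmt3l contact at −10 kb, 18.5 and 22.0 CPM in ES, had 7.45, 10.6 and 9.66 CPM in TKO at 0 h. It fell by 1.41 on the log2 scale (SE 0.142, edgeR adjusted p = 1.46e-14), and by 1.11 under contact totals (edgeR adjusted p = 6.37e-10). This was the single lower call that both scalings gave. The +10 kb contact had 13.9, 10.8 and 12.4 CPM against 15.4 and 16.9 in ES and fell by 0.62 (SE 0.138, edgeR adjusted p = 0.000389), but under contact totals its adjusted p was 0.0743. At +20 kb the estimate was -0.56 (SE 0.184, edgeR adjusted p = 0.0229). There the groups overlapped (6.95, 7.80 and 6.21 CPM against 7.35 and 9.92), and the call was lost under contact totals (0.298). It was also lost without TKO 0 h replicate 1 (0.0765) or 3 (0.0999), without ES replicate 2 (0.406), with the replicate block (0.112) and in DESeq2 (0.239).

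Tet2 moved the other way. The −10 kb contact rose from 12.4 and 12.2 CPM in ES to 20, 22.8 and 22.3 in TKO at 0 h, a log2 change of 0.55 (SE 0.122, edgeR adjusted p = 0.000402), and was called in all alternatives run. The +10 kb contact rose from 4.001 and 4.31 to 10.8, 7.40 and 7.23 CPM, a change of 0.81 (SE 0.199, edgeR adjusted p = 0.00153). In ES it stood close to the lower limit of the list, with 6.07% of the 1071 listed chromosome 3 pairs at its distance weaker. Without TKO 0 h replicate 1 the change at +10 kb was 0.54 and its call was lost (edgeR adjusted p = 0.117). With all libraries, DESeq2 did not call it either (adjusted p = 0.0878). The Tet2 contact at −10 kb at 24 h of dox (13.1 to 14.9 CPM) lay nearer the ES level than at 0 h; this sets 2 comparisons that share the 0 h libraries side by side and was not tested.

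For Tet1 the −10 kb contact had 67.0 and 66.7 CPM in ES and 63.5, 70.2 and 61.4 in TKO at 0 h, and the groups overlapped. The TMM-scaled change was -0.30 (SE 0.0708, edgeR adjusted p = 0.00102), and under contact totals it was 0.0039 with an adjusted p of 0.980, so its direction depends on the scaling. DESeq2 did not call it (adjusted p = 0.0781). The −40 kb contact had 6.77 and 5.47 CPM in ES and 10.8, 11.5 and 9.20 in TKO at 0 h, a change of 0.53 (SE 0.180, edgeR adjusted p = 0.0281). That call was lost without TKO 0 h replicate 1 (0.125) or 2 (0.0964), without ES replicate 2 (0.328) and in DESeq2 (0.251). Over the ES, TKO 0 h and TKO 24 h lists together, 11 of 14 Tet1 pairs, 6 of 8 Tet2 pairs and 3 of 8 Dnmt3l pairs were in all 3.

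Hi-C, which has no antibody step, listed contacts for the bin of Dnmt3l alone. That bin had 11 in MEF and 12 in ES, while the Tet1 and Tet2 bins had 0 in both. The 10 shared contacts were 83.3% of those in ES and 90.9% of those in MEF, and over all Hi-C pairs 40% of the ES list and 55.9% of the MEF list were shared. At an authors' FDR under 0.1 the numbers for Dnmt3l were 4 in MEF and 0 in ES. A gene with 0 in both Hi-C lists occurred in 7.64% of cases, and more contacts in ES than in MEF in 73.5%. The Hi-C lists required a signal of at least 15 in each library and held only p-values under 0.01. At short distances the weakest listed pairs were stronger, averaging 45.0 in MEF and 44.1 in ES at 10 kb on chromosome 10. On chromosome 3 they averaged 43.0 and 42.0 at that distance. Unlisted near contacts of Tet1 and Tet2 may thus have a signal above 15. The windows of 150 kb around Tet1 held 37 pairs of other bins in MEF and 77 in ES. Around Tet2 they held 7 and 32. With 1 bin added on each side, Tet1 had 3 Hi-C contacts in MEF and 3 in ES, and Tet2 had 1 and 9. The Dnmt3l contacts reached farther than in HiChIP, to +120 kb and the bin of D10Jhu81e, which RefSeq names Gatd3a. Of the 8 H3K27ac contacts of Dnmt3l in ES, 5 were also in the ES Hi-C list (62.5%, against 51.2% of all ES H3K27ac pairs).

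The Dnmt3l contact at −10 kb had a signal of 54.8 and 67.4 in MEF and 46.8 and 47.0 in ES. That at +10 kb had 40.5 and 62.3 in MEF and 58.5 and 54.0 in ES, and that at +120 kb 35.3 and 20.3 in MEF against 16.4 and 26.0 in ES. MEF and ES overlapped at +10 and +120 kb and not at −10 kb. None of the 10 shared pairs was called by the quasi-likelihood test of edgeR with Benjamini-Hochberg adjustment. Of all 124544 pairs tested 0.0289% were called, 0.0201% higher in ES and 0.00883% lower. Of the 10, 3 were at an unadjusted edgeR p under 0.05, DESeq2 called 0, and 8 estimates were negative. The largest was -0.79 (SE 0.291, edgeR adjusted p = 0.632) at +100 kb, where the signal was 39.2 and 24.2 in MEF and 21.1 and 19.0 in ES. Without TMM, which moved the median of all pairs from 0.00 to -0.33, 3 were called, all lower in ES. The 10 pairs held 14 to 54 counts per library, and the absence of a call does not show equal strength.

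**Figure D4:**
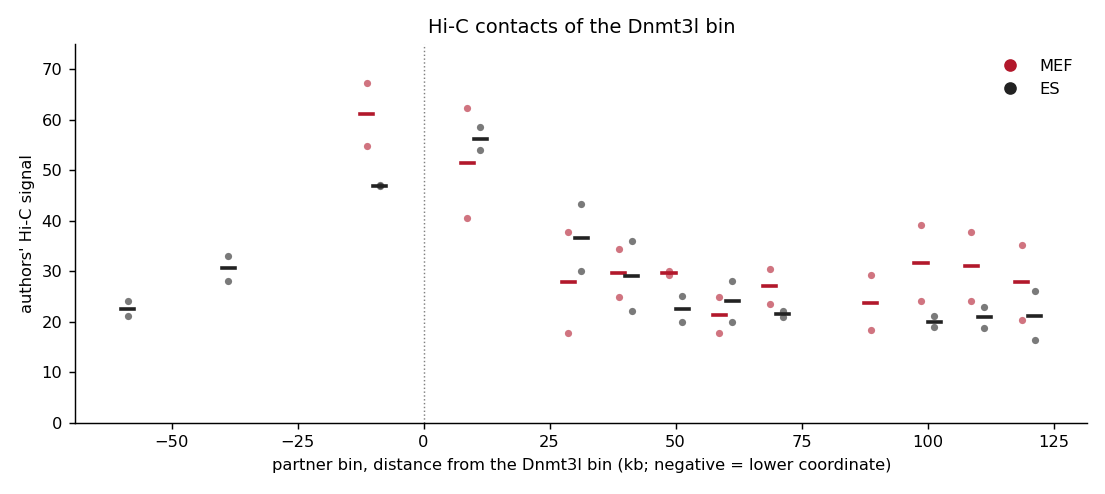
The authors' Hi-C signal (vertical axis, their own scale) of each listed contact of the Dnmt3l bin against the distance of the partner bin in kb (horizontal axis). Each point is 1 library and each line the mean of 2; 10 of the partners occur in both MEF and ES, and the 2 ES contacts at −60 and −40 kb and the MEF contact at +90 kb occur in 1 list.

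All listed contacts of the 3 genes lay within 1 topological domain in the deposited domains of both cell types. For Dnmt3l that domain was the same in MEF and ES, 240 kb long. The domain with the Tet2 bin was 1160 kb long in MEF and 320 kb in ES, and the domain with the Tet1 bin was 920 kb in MEF and 2320 kb in ES. The domains carry no replicates, and these lengths were not tested.

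Other genes of DNA methylation and its removal were counted in the same way. Of a list of 32, 27 had a named bin; 22 had more listed H3K27ac contacts in ES than in MEF, 3 had fewer and 2 had equal numbers. That is 81.5% with more in ES, beside 65.4% of all genes. Both sets hold only genes placed through the TKO lists, which leans these shares toward ES. The median difference was 2 contacts in the list and 2 in all genes, and 8 of 27 (29.6%) went from 0 to some, beside 29.2% of all genes. The largest differences belonged to Ogt, the O-GlcNAc transferase that binds TET proteins, with 0 in MEF and 11 in ES, and Cxxc5, a CXXC-domain protein, with 4 and 15. Next were the maintenance methyltransferase Dnmt1 with 3 and 12 and Dppa3, a maternal factor that protects methylation in the zygote, with 0 and 9. Uhrf2, a relative of the Dnmt1 partner Uhrf1, came next as well, with 9 and 0. In TKO, Uhrf2 had 5 at 0 h and 3 at 24 h. Of the DNMT3L partners, Dnmt3a had 1 in MEF and 2 in ES and Dnmt3b had 0 and 4, and they had 2 and 5 KLF4 contacts in ES. Tet3 had no named bin and was not analysed here.

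The genes most like each member in their 9 contact numbers were found by the Euclidean distance of log2(number + 1). For Tet2 these were Hmmr and Nudcd2 (distance 0.170 each) and Suz12 (0.228). For Tet1 they were Gm21992 and Rbm14 (0.468 each) and Tdgf1 (0.583), with 14 ES H3K27ac contacts each and 0 in MEF. Hmmr and Nudcd2 had the same number in each of the 9 lists, as had Gm21992 and Rbm14. Each of these gene pairs may thus be 1 locus. Dnmt3l was less closely matched, by Ano9 (0.631), Mroh4 (0.774) and Gjb1 (0.851), all with Hi-C contacts in both cell types and 0 H3K27ac contacts in MEF.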

How the data were processed

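The libraries were sequenced on HiSeq instruments after fixation in 1% formaldehyde, per the labels' protocols. Bowtie2 2.2.3 and the mm10 build are named per the submitters' processing notes; the contact caller, its test and its filters are not given in the sources used here. Per the file headers, each deposited list gives a raw count and a CPM per library and 1 p-value and 1 FDR per pair of 10 kb bins. In HiChIP the deposited CPM equals the count over the contacts of the chromosome. The authors' Hi-C signal, headed CPM, is scaled by constants of unstated origin. H3K27ac peaks, gene names and domains were used as the authors deposited them.

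Pairs found in both lists of a comparison were tested on raw counts with edgeR 4.0.16 (R 4.3.3): quasi-likelihood test, filterByExpr, TMM on contact totals (Hi-C: sums of listed counts), only the groups compared, Benjamini-Hochberg adjustment over all pairs, called under 0.05. The test is conditional on a pair being in both lists. The SE given with an edgeR change was derived from it, as its absolute value over the square root of the F statistic. Libraries whose counts agreed within sampling noise (a chi-square test of their counts did not pass 0.05 while others of the group did) were counted as 1 sample, with counts summed in the fits and CPM averaged in the means and SDs: TKO 24 h replicates 1 and 3, ES KLF4 replicates 1 and 2, and 3 and 4. TKO 0 h replicates 2 and 3 narrowly passed it and were kept apart. These fits were first tested on simulated data. DESeq2 1.42.0, other scalings and filters, a replicate block and leaving out each library were alternatives. Contact counts rest on PCR-amplified ligation products, so counting error is a lower limit.

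The named genes followed a rule: every pair of a member bin could be named, with values for the strongest and longest pairs, the called ones and those shared by KLF4 and H3K27ac in ES; from the DNA methylation list the 4 largest differences (with ties), Dnmt1, Dnmt3a, Dnmt3b and Tet3; and the 3 most alike genes. Members and lists were chosen with earlier results of these data known. Replicate numbers are not said to mark a shared culture, and same-numbered TKO libraries did not deviate together (r from -0.0070 to 0.0057).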

Additional observations from a re-analysis of the deposited data

How the results depend on the processing

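Presence in a list depended on the filters. At an authors' FDR under 0.1, the ES minus MEF differences in H3K27ac contacts were 2 for Tet1, 0 for Tet2 and 2 for Dnmt3l; TKO 24 h minus 0 h gave 1, -2 and 0; KLF4 ES minus day 3 gave 0 for each gene; and Hi-C ES minus MEF for Dnmt3l turned from 1 to -4. With 1 bin added on each side, ES minus MEF was 39, 14 and 24, TKO was -1, -8 and 0, KLF4 was 5 for Tet1 and 4 for Tet2, and Hi-C was 8 for Tet2 and 4 for Dnmt3l. With anchors at least 30 kb apart, ES minus MEF was 7, 4 and 4, and KLF4 was 1, 0 and 1. The bin of the RefSeq Tet1 start, chosen after seeing the data, gave 7 for ES minus MEF and 3 for TKO. Fewer or more bins entered by construction.

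DESeq2 called 0 of the 4 TKO pairs it tested and 3 of the 17 in TKO 0 h against ES, and Hi-C without TMM gave 3 calls; the cause was not tested. Leaving out each library gave 1 to 2 calls in TKO, 4 to 7 in TKO 0 h against ES (4 without TKO 0 h replicate 1) and 0 in Hi-C. With the replicate block there were 2, 6 and 0 calls, and 76 rather than 36 of all Hi-C pairs. The Tet1 pair at −10 kb reversed to 0.0039 under contact totals. DESeq2 called 278 of the 4700 TKO pairs to which it gave an adjusted p, and edgeR 1894 of 67723. For TKO 0 h against ES these were 2552 of 34726 and 9869 of 58568. The counts of calls thus rest on different numbers of pairs. No pair of the 3 genes was in both lists for H3K27ac ES against MEF or any KLF4 comparison, so those fits gave no value. For the pairs called in the report, 81 values under the alternatives kept their side of the threshold, 18 lost the call with the same sign, and the Tet1 pair at −10 kb lost it with its sign reversed. Some of the 81 had to agree. In TKO 0 h against ES no library was joined, so keeping libraries separate repeated the main fit. Leaving out the filter there raised the pairs only from 58568 to 58574.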
